A study of Homo sapiens with 4 samples.

Results

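AGPAT9, now named GPAT3, is an enzyme gene at the entry of triglyceride synthesis. It was examined here with 9 other genes of triglyceride synthesis and lipid droplet coating: the acyltransferase genes GPAM, AGPAT1 and AGPAT2, the phosphatidate phosphatase gene LPIN1, the diacylglycerol acyltransferase genes DGAT1 and DGAT2, and the perilipin genes PLIN2, PLIN3 and PLIN4. The 10 genes were chosen by symbol, and each was found once among the 26255 gene symbols of the deposited tables. AGPAT9 was included because its 3' UTR holds a match to the miR-4800-3p seed. The other genes serve as paralogs and pathway partners for comparison. The choice was made with earlier results of these data known, so the ranks and p-values of AGPAT9 may not be independent of it.

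RNA was sequenced from MIA PaCa-2 and PSN-1, which are established human cell lines from pancreatic tumours labelled as epithelial. Each line was transfected with a synthetic miR-4800-3p mimic or with a negative control (scramble) oligonucleotide, in order to look for target messenger RNAs. The 4 groups, mimic and scramble in each of the lines, hold 1 library apiece. No value below is replicated inside a line, and the treatment is repeated only across the lines.

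Triglyceride is built on glycerol-3-phosphate. Glycerol-3-phosphate acyltransferases (GPAM at the outer mitochondrial membrane, AGPAT9 and AGPAT6 at the endoplasmic reticulum) add the first fatty acid, the lysophosphatidic acid acyltransferases AGPAT1 and AGPAT2 add the next, lipins remove the phosphate, and DGAT1 or DGAT2 adds the last fatty acid. The product is stored in lipid droplets, whose surface is coated by perilipins. A microRNA lowers its targets chiefly by pairing of its seed, bases 2 to 8, with a complementary site in the 3' UTR.

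The mature microRNA (from the RefSeq table, GRCh38.p14, chromosome 4, 2250091 to 2250109, minus strand) is shown with its seed in capitals. It is followed by 3 of the places among these genes where the transcript complements the seed, with the complementary bases in capitals and each window 30 bases long. The 3' UTR matches are shown because AGPAT9 and LPIN1 are the members that have one. The LPIN1 coding match is shown because it has the same 7 bases as the AGPAT9 site. DGAT1 has these 7 bases in its coding sequence too, and that window is not shown.
miR-4800-3p: cAUCCGUCcgucuguccac
AGPAT9 3' UTR: tcagctaagagGACGGATgacagcctttag
LPIN1 3' UTR: tctgtagaaacACGGATgtgcatgtgcaga
LPIN1 coding sequence: acagcaaacaaGACGGATtctccttccagg

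The AGPAT9 match GACGGAT pairs with all of bases 2 to 8. It lies on chromosome 4 from 83604771 to 83604777 (GRCh38, plus strand), and begins at base 4 of a 3' UTR of 1108 bases. The stop codon taa stands just before it in the window, and all 3 annotated coding transcripts of the gene carry the match. AGPAT9 also has the 6-mer ACGGAT, which pairs with bases 2 to 7, in its coding sequence (chromosome 4, 83590272 to 83590277). In LPIN1 the 3' UTR holds the 6-mer only (chromosome 2, 11826384 to 11826389, plus strand, base 1593 of 2618), in 3 of 5 coding transcripts. The 7-mer of LPIN1 is in the coding sequence of all 5 transcripts (chromosome 2, 11782482 to 11782488). DGAT1 had the same 7-mer as AGPAT9 and PLIN3 a 6-mer in the coding sequence, and neither had a match in the 3' UTR. No match was found in the 3' UTRs of GPAM, AGPAT1, AGPAT2, DGAT2, PLIN2 and PLIN4, nor in their coding sequences. The search covered the 8-mer GACGGATA, the 7-mers left when its last or its first base is dropped, and the 6-mer without both, on the transcript strand, so the longer motifs contain the 6-mer. Among 18689 genes with an annotated 3' UTR, 2.15% held one of the 3 longer motifs in the longest 3' UTR and 5.33% held any of the 4. In the coding sequence, the shares were 3.97% and 10.7%. A match describes the sequence, and its use by these cells was not measured.

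AGPAT9 was lower with the mimic in both lines. In MIA PaCa-2 it was at 52.5 FPKM (fragments per kilobase of transcript, scaled to library size) under the mimic and 119 FPKM under the scramble, so the mimic library held 44.3% of the scramble level. In PSN-1 it was at 9.22 FPKM under the mimic and 31.9 FPKM under the scramble, or 28.9%. Pairs of levels below give the mimic library before the scramble library. The mimic library was the lower one in each line, yet the MIA PaCa-2 mimic library still stood above the PSN-1 scramble library. On the scale used for all changes below, log2 of (mimic FPKM + 1) over (scramble FPKM + 1), the difference was -1.16 for MIA PaCa-2 and -1.69 for PSN-1. About 1962 and 3963 fragments stood behind the MIA PaCa-2 values and about 386 and 1058 behind those of PSN-1. The counting error (SE) of the log2 change was 0.039 and 0.079, which leaves out any error between cultures. In bulk RNA, less transcript per cell and fewer cells with the transcript cannot be told apart. AGPAT9 ranked 61 from the lowest of the 11484 genes that averaged 1 FPKM or more over the MIA PaCa-2 libraries and 22 from the lowest of 12233 such genes in PSN-1.

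The shared effect of the mimic was fitted with limma with the line as a block. AGPAT9 then had a mean log2 change of -1.42 (SE 0.17, 95% interval -1.85 to -1.0, unadjusted p = 0.000334), lower in 2 of 2 lines. It was not called after Benjamini-Hochberg adjustment over 12423 genes (adjusted p = 0.209 in limma). The fit has 1 residual degree of freedom, and 5.07 with those that limma borrows from other genes. The SE and interval therefore rest largely on that borrowed spread and not on the spread of AGPAT9 between the lines. The fit called 1 gene lower (0.00805%) and 6 higher (0.0483%). AGPAT9 was the 1 member with an unadjusted p under 0.05, a level that 4.24% of genes reached on the lower and 4.19% on the higher side. Over 11 other settings the adjusted p of AGPAT9 in limma ran from 0.0496 to 1. The lowest came when the fit was limited to genes averaging 1 FPKM or more in each line and short non-coding genes were left out, a setting chosen after the data were seen. None of the other 9 genes was called in any setting in which it was fitted.

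**Figure D1:**
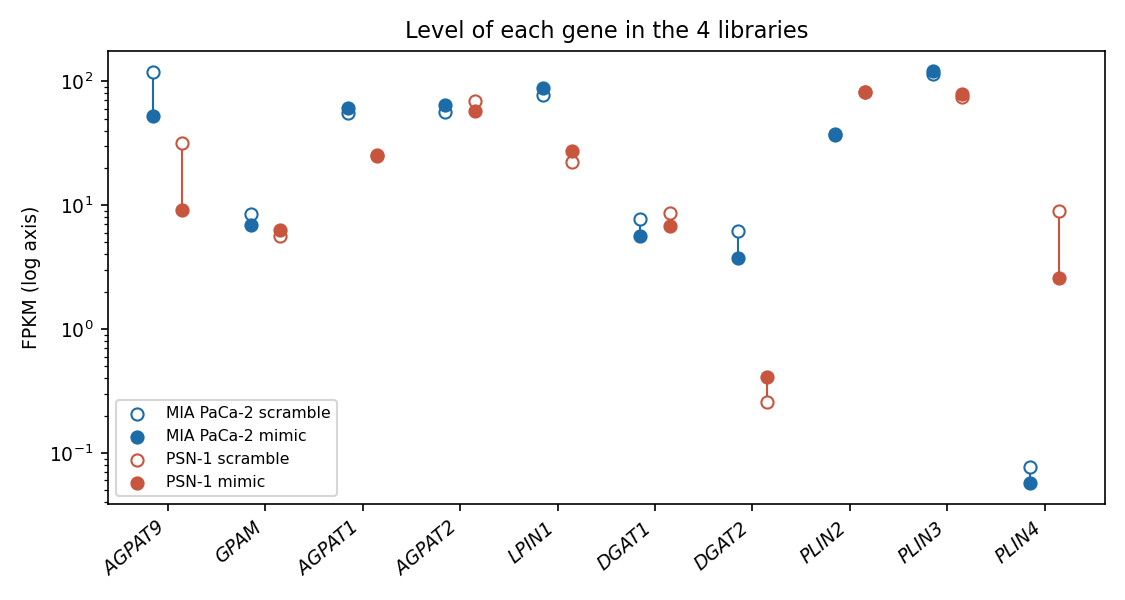
Level of each gene in FPKM on a log axis, with open circles for the scramble and filled circles for the mimic library of MIA PaCa-2 (blue) and PSN-1 (red), 1 library per point. AGPAT9 is lower with the mimic in both lines (52.5 versus 119 and 9.22 versus 31.9 FPKM), PLIN4 is near 0 in MIA PaCa-2, and PLIN2 and PLIN3 differ little.

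Among glycerol-3-phosphate acyltransferases, AGPAT9 was the most abundant in both scramble libraries. It made up 80.4% of the family's summed FPKM in the MIA PaCa-2 scramble library and 59.6% in that of PSN-1. With the mimic its share was 71.2% and 32.9%, and in the PSN-1 mimic library AGPAT6 was the most abundant (44.0%). The summed level of AGPAT9, AGPAT6, GPAM and GPAT2 was 73.8 FPKM (mimic) versus 148 FPKM (scramble) for MIA PaCa-2, and 28.0 versus 53.6 FPKM in PSN-1. AGPAT9 accounted for 89.6% of the difference for MIA PaCa-2 and 88.7% for PSN-1. These are shares of transcript, and the enzymes themselves were not measured.

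**Figure D2:**
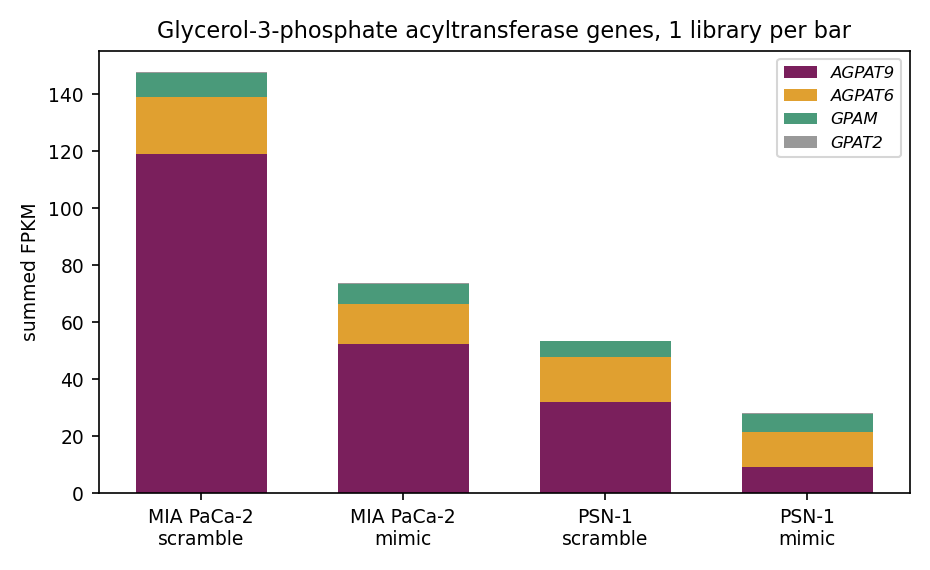
Summed FPKM of the glycerol-3-phosphate acyltransferase genes, stacked by gene, with 1 library per bar and no error bars because each group has 1 library. The mimic bars reach 73.8 FPKM in MIA PaCa-2 and 28 FPKM in PSN-1 against 148 and 53.6 FPKM with the scramble, and AGPAT9 makes up 89.6% and 88.7% of the difference.

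GPAM, the mitochondrial enzyme of this step, was at 6.98 FPKM (mimic) and 8.52 FPKM (scramble) for MIA PaCa-2, and at 6.28 and 5.61 FPKM in PSN-1. Its log2 changes, -0.25 and 0.14, had opposite signs, and the counting interval of the PSN-1 value held 0 (-0.01 to 0.29). AGPAT6, now named GPAT4, is the closest relative of AGPAT9 in the family and was not one of the 10 genes. It was at 13.9 versus 20.1 FPKM for MIA PaCa-2 and 12.3 versus 15.9 FPKM for PSN-1 (log2 changes -0.51 and -0.35, adjusted p = 0.534 in limma). Its 3' UTR held the 6-mer. GPAT2 stayed under 0.5 FPKM in all 4 libraries.

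The lysophosphatidic acid acyltransferases carry symbols like that of AGPAT9 but act on its product. AGPAT1 was at 60.9 FPKM (mimic) and 55.4 FPKM (scramble) for MIA PaCa-2, and at 25 and 25.4 FPKM in PSN-1. Its log2 changes were 0.14 and -0.02. AGPAT2, the isoform whose loss causes congenital lipodystrophy, was at 64.8 versus 56.1 FPKM for MIA PaCa-2 and 57.6 versus 69.4 FPKM for PSN-1. It was thus higher with the mimic in MIA PaCa-2 (log2 change 0.20) and lower in PSN-1 (-0.26), each with a counting interval that left out 0, though the difference between the lines could not be tested with 1 library per group. In PSN-1, genes with GC-rich 3' UTRs tended to be lower with the mimic (Spearman correlation -0.218 across 11393 genes, which are not independent replicates). The 3' UTR of AGPAT2 is 66.5% G and C, and with this trend removed its PSN-1 change was -0.13. The same step left AGPAT9, at 36.2% G and C, at -1.72 in PSN-1. The paralogs AGPAT3 (-0.22 and -0.50) and AGPAT5 (-0.12 and -0.45) had negative log2 changes in both lines, and AGPAT4 was measured in PSN-1 only (0.17).

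LPIN1, the phosphatidate phosphatase lipin 1, which also acts as a transcriptional coactivator, was slightly higher with the mimic in both lines. It was at 88.9 versus 77.6 FPKM for MIA PaCa-2 and 27.2 versus 22.4 FPKM for PSN-1 (log2 changes 0.19 and 0.27). Both changes were larger than their counting error (SE 0.026 and 0.046), and the mean, 0.23 (95% interval -0.06 to 0.53), was not called (adjusted p = 0.654 in limma). Like AGPAT9, LPIN1 has a match in the 3' UTR and another in the coding sequence, as shown above. Its paralog LPIN2 had log2 changes of 0.30 and 0.26, and LPIN3 of 0.21 and -0.36.

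DGAT1, which makes triglyceride from diacylglycerol in the endoplasmic reticulum, was at 5.69 FPKM (mimic) and 7.71 FPKM (scramble) for MIA PaCa-2, and at 6.76 and 8.60 FPKM in PSN-1. The mimic library was the lower one in both lines, with log2 changes of -0.38 and -0.31 (mean -0.34, 95% interval -0.73 to 0.05, adjusted p = 0.626 in limma). Its 3' UTR is 62.7% G and C, and with the GC trend removed its PSN-1 change was -0.19. DGAT2, an unrelated enzyme of the same step, was at 3.75 versus 6.18 FPKM in MIA PaCa-2 (log2 change -0.60). In PSN-1 it was at 0.413 versus 0.260 FPKM, about 16 and 7.8 fragments, which was too low for a comparison.

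PLIN2 and PLIN3, the perilipins of most non-adipose cells, differed little with the mimic. PLIN2, which marks lipid droplets, was at 36.7 versus 37.8 FPKM for MIA PaCa-2 and 82.3 versus 81.9 FPKM for PSN-1. PLIN3 was at 120.3 versus 114 FPKM for MIA PaCa-2 and 78.8 versus 74.1 FPKM for PSN-1. In the limma fit their mean log2 changes were -0.02 (95% interval -0.30 to 0.27) and 0.08 (-0.17 to 0.33), with adjusted p = 0.983 and 0.865.

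PLIN4, a perilipin of adipocytes and muscle with a long repeat region, was at 2.59 FPKM under the mimic and 8.91 with the scramble in PSN-1. That is 29% of the scramble level, close to the 28.9% of AGPAT9, and a log2 change of -1.47 (counting SE 0.080), rank 30 from the lowest of 12233 genes. The value with a pseudocount of 0.1 FPKM was -1.75. The 3' UTR of PLIN4 is 63.4% G and C, and with the GC trend removed its PSN-1 change was -1.35. In MIA PaCa-2 it was at 0.0571 and 0.0767 FPKM, about 5.2 and 6.3 fragments, so only the PSN-1 pair could be compared, and the mean over the lines was not called (-0.75, SE 0.37, adjusted p = 0.655 in limma). PLIN4 has no seed match in its annotated 3' UTR or coding sequence. Its adipocyte relative PLIN1 was under 1 FPKM in all 4 libraries, and PLIN5 under 0.2 FPKM.

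**Figure D3:**
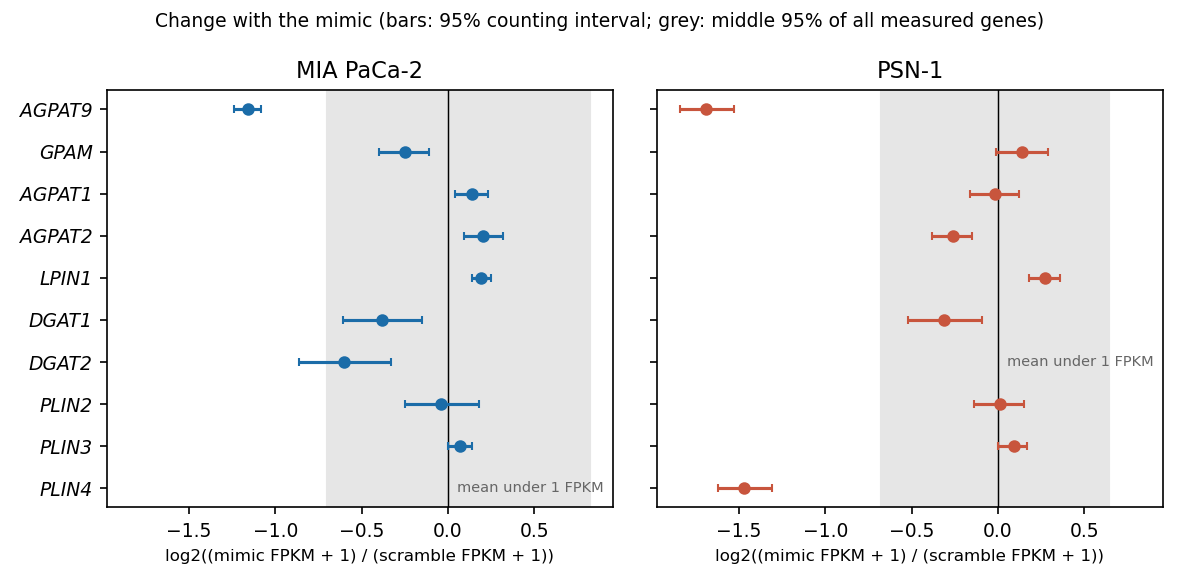
Log2 change with the mimic for each gene in MIA PaCa-2 and PSN-1, with bars for the 95% counting interval and grey for the range that holds the middle 95% of all measured genes (-0.70 to 0.82 and -0.68 to 0.64). AGPAT9 lies below the grey range in both lines and PLIN4 in PSN-1, while the other measured genes lie within it.

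Of the 10 genes, 9 averaged 1 FPKM or more in MIA PaCa-2 (all but PLIN4) and 9 in PSN-1 (all but DGAT2). In MIA PaCa-2, AGPAT9 was the 1 gene of these lower past 2-fold, against 0.81% of all measured genes, and AGPAT9 and DGAT2 were lower past 1.5-fold, against 4.06%. In PSN-1, AGPAT9 and PLIN4 were lower past 2-fold, against 0.777% of all measured genes, and no other member was lower past 1.5-fold, where 3.87% of genes were. None was higher past 1.5-fold in either line, against 5.43% and 3.17% of all measured genes, or past 2-fold, against 1.31% and 0.85%. The median log2 change of the 9 measured genes was -0.04 for MIA PaCa-2 and -0.02 for PSN-1, beside 0.014 and -0.016 over all measured genes. AGPAT9 was the 1 member lower past 2-fold in both lines, where 12 of 10678 genes (0.112%) were, and also the 1 lower past 1.5-fold in both (0.609% of genes). No member was higher in both lines past 1.5-fold or 2-fold (0.749% and 0.15% of genes). These counts describe the chosen set and test nothing.

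Beside other genes with a seed match, AGPAT9 stood near the low end. Genes with a 7-mer or 8-mer in the longest 3' UTR had a median log2 change of -0.13 in MIA PaCa-2 (255 genes, quartiles -0.33 and 0.09) and -0.12 in PSN-1 (291 genes, quartiles -0.37 and 0.08). AGPAT9 ranked 6 from the lowest of these for MIA PaCa-2 and 2 for PSN-1, where the aldehyde dehydrogenase gene ALDH1A3 was lower. Of the 243 such genes measured in both lines, AGPAT9 and RGS3, a regulator of G protein signalling, were lower past 2-fold in both. Among the 54 lipid genes examined, GPD1L was the other with a 7-mer in its longest 3' UTR. GPD1L, a relative of the enzyme that makes glycerol-3-phosphate, was at 5.24 versus 6.09 FPKM for MIA PaCa-2 and 11 versus 15 FPKM for PSN-1 (log2 changes -0.18 and -0.42).

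**Figure D4:**
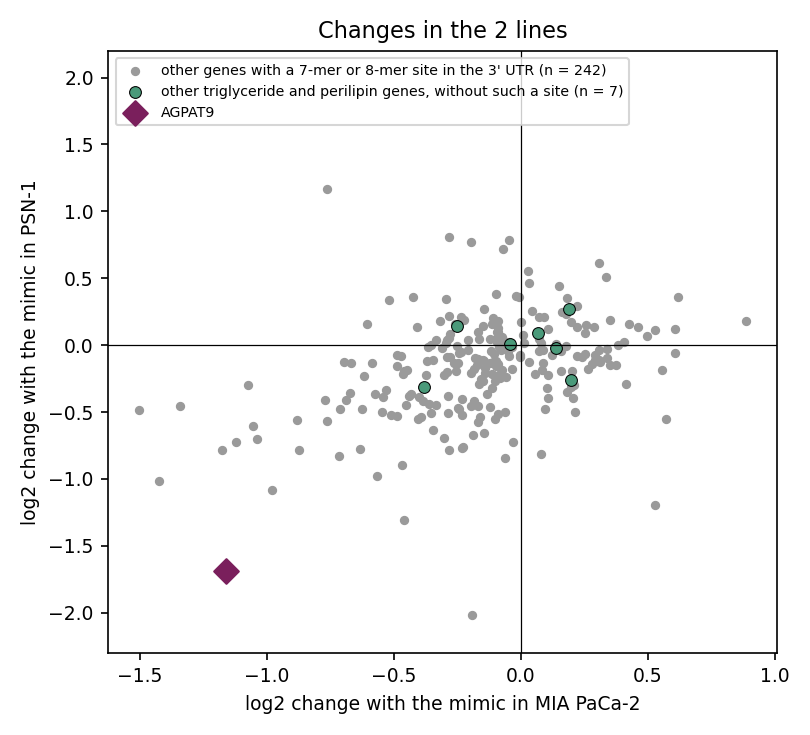
Log2 change with the mimic in MIA PaCa-2 (horizontal) and PSN-1 (vertical) for 242 other genes with a 7-mer or 8-mer site in the 3' UTR (grey), for the 7 other triglyceride and perilipin genes measured in both lines (green) and for AGPAT9 (diamond). AGPAT9, at -1.16 and -1.69, lies at the lower left, and the 7 others lie between -0.38 and 0.27 on both axes.

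The 5 genes whose pair of log2 changes was nearest to that of AGPAT9, by Euclidean distance among 10624 genes over 2 lines and 4 libraries, were WRB, PTGES2, ATP5I, SNRPE and TMX2-CTNND1. WRB, a receptor for the insertion of tail-anchored proteins, was nearest (distance 0.16), at 6.06 versus 13.1 FPKM for MIA PaCa-2 and 5.61 versus 19.9 FPKM for PSN-1. PTGES2 (log2 changes -1.04 and -1.40), the ATP synthase subunit gene ATP5I (-1.41 and -1.44) and the spliceosomal protein gene SNRPE (-1.55 and -1.62) followed at distances of 0.31, 0.35 and 0.39. TMX2-CTNND1, a read-through transcript that shares its exons with both of its parent genes, was listed at 0 with the mimic in MIA PaCa-2, and its values are uncertain. WRB had an 8-mer in its coding sequence and a 6-mer in its 3' UTR, ATP5I had a 6-mer in its coding sequence, and PTGES2 and SNRPE had no match in either.

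The lines differed more in several of these genes than the mimic and scramble libraries did. In the same limma fit, with the oligonucleotide as a block, 5 of the 10 genes were lower and 2 higher in PSN-1 than in MIA PaCa-2 at an adjusted p under 0.05. Over all 12423 genes 27.3% were lower and 29.2% higher, so a called difference between the lines was common. AGPAT9 was lower in PSN-1 by a log2 difference of -2.12 (SE 0.17, adjusted p = 0.000579 in limma), with PSN-1 libraries at 9.22 and 31.9 FPKM and MIA PaCa-2 libraries at 52.5 and 119 FPKM. LPIN1 (-1.71), DGAT2 (-2.13), AGPAT1 (-1.17) and PLIN3 (-0.61) were also lower in PSN-1, with adjusted p = 0.000379, 0.00196, 0.00135 and 0.00527 in limma. PLIN4 (2.48) and PLIN2 (1.12) were higher, with adjusted p = 0.00413 and 0.00114 in limma. With a pseudocount of 0.1 FPKM the difference was -3.52 for DGAT2 and 4.88 for PLIN4, the members with a line near 0. For GPAM (-0.33), AGPAT2 (0.07) and DGAT1 (0.18) the 95% intervals held 0 (-0.78 to 0.12, -0.32 to 0.45 and -0.21 to 0.57). These p-values rest on how far the lines disagree in their mimic-scramble difference (1 residual degree of freedom) and on the spread that limma borrows from other genes, with 1 culture per group. Without the oligonucleotide as a block, the adjusted p of AGPAT9 in limma was 0.0457.

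In the order of levels, which FPKM allows because it divides by transcript length, AGPAT9 came first in the MIA PaCa-2 scramble library. PLIN3 came next at 114 FPKM, within counting error of it, and LPIN1 was the third. AGPAT2 and AGPAT1 followed and were within counting error of each other, then came PLIN2, the low group of GPAM, DGAT1 and DGAT2, and PLIN4 last. With the mimic AGPAT9 was the fifth in MIA PaCa-2, below AGPAT1 at 60.9 FPKM. In the PSN-1 scramble library PLIN2 led, PLIN3 and AGPAT2 followed within counting error of each other, and AGPAT9 was the fourth. With the mimic AGPAT9 was the sixth in PSN-1, below AGPAT1 at 25 FPKM, and DGAT2 was last in both PSN-1 libraries.

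Beyond the 10 genes, 44 other lipid genes were examined from lists of enzyme families, droplet assembly, triglyceride breakdown, fatty acid supply, sterol ester synthesis and transcription factors. In MIA PaCa-2, 19 of the 25 measured were lower with the mimic and 6 higher (median -0.12), where 47.8% of all measured genes were below 0. In PSN-1, 22 of the 30 measured were lower and 8 higher (median -0.19), where 52.4% of all measured genes were below 0. Past 1.5-fold, 1 gene was lower in MIA PaCa-2 (background 4.06%) and 5 were lower in PSN-1 (background 3.87%), with none higher. None of the 29 in the limma fit was called for the mimic. AGPAT6, CDS2 and MLXIPL, all lower with the mimic, were under an unadjusted p of 0.05 in that fit. Of all genes in the fit, 4.24% reached that level on the lower side and 4.19% on the higher side.

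The gene past 1.5-fold in MIA PaCa-2 was HILPDA, which encodes a hypoxia-induced inhibitor of triglyceride breakdown, at 0.962 versus 2.08 FPKM (log2 change -0.65, counting SE 0.26). In PSN-1 it was at 1.14 versus 1.04 FPKM. G0S2, another inhibitor of the triglyceride lipase PNPLA2, was at 5.02 versus 10.6 FPKM in PSN-1 (-0.94) and under 0.3 FPKM in MIA PaCa-2. PNPLA3, a droplet-bound lipase and acyltransferase, was at 6.76 versus 12.1 FPKM in PSN-1 (-0.76) and at 1.84 versus 2.36 FPKM in MIA PaCa-2 (-0.24). The triglyceride breakdown list had 5 measured genes in PSN-1: PNPLA2, PNPLA3, ABHD5, MGLL (-0.32) and G0S2, which inhibits breakdown. All 5 were below 0 there (median -0.32), where 52.4% of all genes were. PNPLA2, PNPLA3 and ABHD5, the 3 measured in MIA PaCa-2, were too (median -0.24), where 47.8% were. None of those in the limma fit was called. The counting interval held 0 for ABHD5, a coactivator of PNPLA2, in both lines and for PNPLA3 in MIA PaCa-2, and PNPLA2 itself was at -0.15 in PSN-1 but at -0.04 with the GC trend removed.

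CIDEC, a droplet fusion protein gene of fat tissue, was at 0.880 versus 1.98 FPKM in PSN-1 (log2 change -0.66, counting SE 0.25). These values rest on about 16 and 28 fragments, and with the GC trend removed the change was -0.57, short of 1.5-fold. CIDEC was listed at 0 in both MIA PaCa-2 libraries. CDS2, whose enzyme draws phosphatidic acid away from triglyceride towards other phospholipids, was at 12 versus 20.3 FPKM in PSN-1 (-0.71) and 4.88 versus 5.99 FPKM in MIA PaCa-2 (-0.25), and has a 7-mer in its coding sequence. MLXIPL, the carbohydrate-responsive transcription factor gene, was at 1.95 versus 3.85 FPKM in PSN-1 (-0.72) and 3.56 versus 4.96 FPKM in MIA PaCa-2 (-0.38). PPARG, the main adipogenic transcription factor gene, was at 63.7 versus 85.4 FPKM in PSN-1 (-0.42) and 3.03 versus 3.26 FPKM in MIA PaCa-2 (-0.08). It was higher in PSN-1 than in MIA PaCa-2 by a log2 difference of 4.17 (adjusted p = 0.000101 in limma). The fatty acid activation genes ACSL1, ACSL3 and ACSL4 lay between -0.12 and 0.30 in both lines. ACSL5, of the same family, was at 24.6 versus 34.1 FPKM in PSN-1 (-0.46, counting interval -0.56 to -0.35) and under 0.1 FPKM in MIA PaCa-2. The sterol ester gene SOAT1 was at 0.03 and 0.06.

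**Figure D5:**
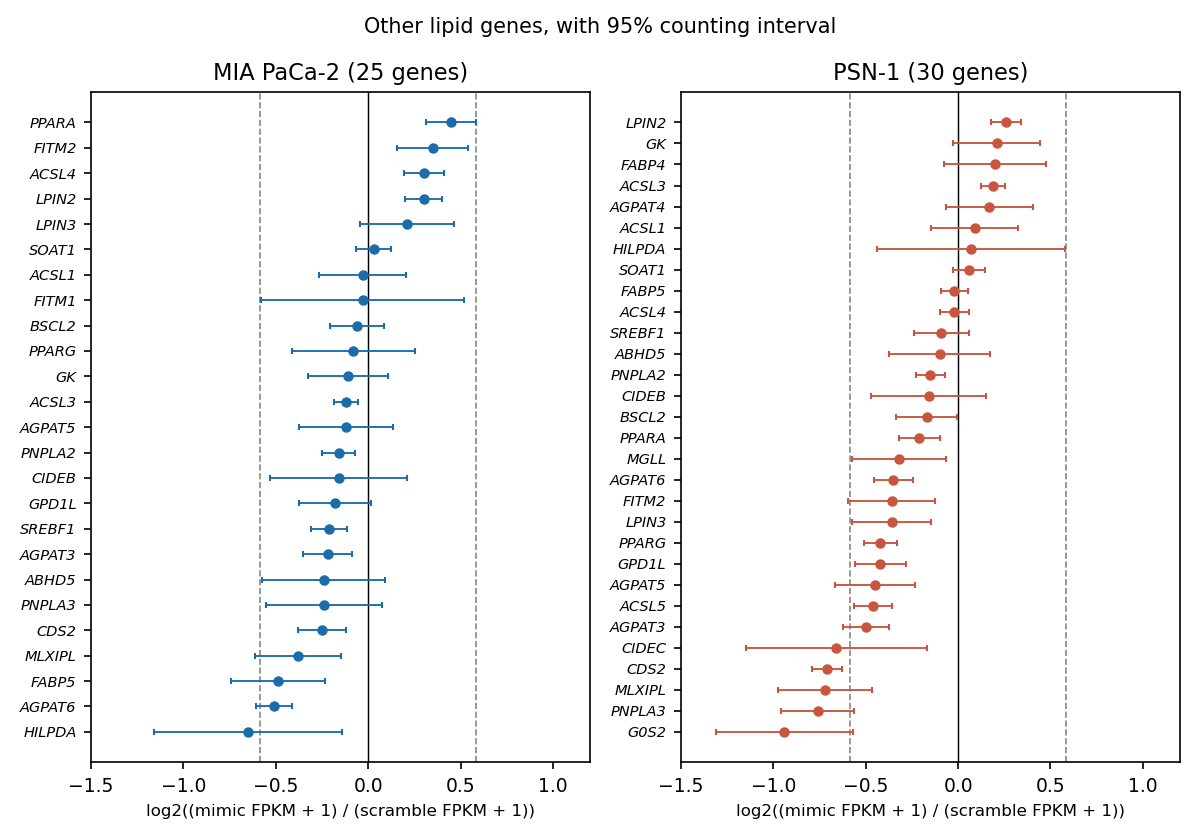
Log2 change with the mimic for the other lipid genes averaging 1 FPKM or more in MIA PaCa-2 (25 genes) and PSN-1 (30 genes), ordered within each line, with bars for the 95% counting interval and dashed lines at 1.5-fold. In PSN-1 the lowest are G0S2 (-0.94), PNPLA3 (-0.76), MLXIPL (-0.72), CDS2 (-0.71) and CIDEC (-0.66), and no gene passes 1.5-fold upward in either line.

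The libraries had 15699 to 17294 genes above 0 FPKM. Of the 7 epithelial markers KRT8, KRT18 and KRT19 were above 70 FPKM in all 4 libraries, EPCAM and KRT7 were absent or near 0 in MIA PaCa-2, and CDH1 was at 0.170 to 1.51 FPKM. The epithelial markers summed to 1636 versus 1708 FPKM for MIA PaCa-2 and 1489 versus 1690.0 FPKM for PSN-1, lower with the mimic in both. In MIA PaCa-2 only KRT8 was lower (737 versus 923 FPKM). KRT18 (718 versus 653 FPKM), KRT19 (178 versus 131 FPKM) and the other detected markers were higher there. In PSN-1 KRT18 (556 versus 495 FPKM) and EPCAM (28.4 versus 24.1 FPKM) were higher and the others lower. Mesenchymal state genes, mostly VIM, summed to 4432 versus 4136 FPKM and 1258 versus 1164 FPKM, higher with the mimic in both. Of the 6 adipocyte markers ADIPOQ was at 0 in every library, and the list summed to 0.274 and 0.303 FPKM in MIA PaCa-2 and 18.0 (mimic) and 17.0 FPKM (scramble) in PSN-1, where FABP4 made up most of it. Fibroblast and stellate cell markers summed to 67 versus 84.7 FPKM for MIA PaCa-2 and 66.1 versus 79.3 FPKM for PSN-1. Each mimic library had the smaller sum, but different genes made up most of it in each line. The MIA PaCa-2 sum was mostly COL1A2 (59.9 versus 76.8 FPKM). That of PSN-1 was mostly COL3A1 (36.1 versus 45.6 FPKM), PDGFRB (19.6 versus 20.9 FPKM) and COL1A1 (10.2 versus 12.6 FPKM). COL1A2 was at 0.012 versus 0 FPKM in PSN-1. Leukocyte markers, mostly CD68, summed to 35.2 versus 20.3 FPKM and 41.5 versus 38.7 FPKM, higher with the mimic in both. CD3E was at 0 in every library, and in PSN-1 PTPRC (0.423 versus 0.433 FPKM) and LYZ (2.38 versus 3.01 FPKM) were lower. LYZ was higher in MIA PaCa-2 (0.535 versus 0.239 FPKM), where PTPRC was at 0. Hepatocyte markers summed to under 0.2 FPKM. The part of these lists in the AGPAT9 values was not tested.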

How the data were processed

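The authors deposited FPKM values per gene symbol, 1 table per library, per the file headers. Per the labels' protocols, RNA came from a miRNeasy Micro kit extraction and libraries from a stranded TruSeq mRNA kit. TopHat2 2.1.1, Cuffdiff 2.2.1 and hg19 are named in the submitters' processing notes; how libraries were scaled, the gene annotation and the use of strand are not given in the sources used. Samples were grouped by line and oligonucleotide from the titles. Changes were taken as log2(FPKM + 1) for genes averaging 1 FPKM or more in the line. The shared effect and the line difference were fitted with limma 3.58.1 in R 4.3.3 (eBayes with trend, two-sided, genes averaging 1 FPKM or more over all 4 libraries). The shared-effect fit was also run on simulated libraries with planted changes equal in both lines. Planted changes that differ between the lines were not simulated. Within a line there was no test. FPKM steps of single-transcript genes (assumed fragment length 200 bases) put 1 FPKM at 12.6 to 15.9 fragments per kb, an estimate; fragment numbers use the median length of a gene's coding transcripts, and intervals cover counting error only. Seed matches were searched in GENCODE 29 transcripts (GRCh38, another build than the files' hg19), joined by current or older symbol (19012 of 26255 symbols matched). AGPAT9 was read as GPAT3; LPCAT1, which shares that older symbol, has its own row. Named genes were all members, listed lipid genes past 1.5-fold and paralogs, and the 5 genes nearest to AGPAT9. GPD1L, RGS3, ALDH1A3, PPARG, PNPLA2, ABHD5, the ACSL genes, SOAT1, FITM2 and PPARA were named after their values were seen. The members and lists were chosen with earlier results of these data known.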

Additional observations from a re-analysis of the deposited data

Results flagged for a closer look

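The 54 lipid genes examined were searched for opposite signs, where measured in both lines. In 4 of them the log2 changes of the lines had opposite signs, each with a 95% counting interval that left out 0. The share of all measured genes that meet this rule was not counted, and counting error leaves out any error between cultures. These differences were not tested because each group has 1 library. AGPAT2 was at 0.20 for MIA PaCa-2 but -0.26 for PSN-1. FITM2, a lipid droplet budding protein gene, was at 0.35 and -0.36, and PPARA, a transcription factor gene of fatty acid oxidation, at 0.45 and -0.21, in the same order. ACSL3, a fatty acid activating enzyme gene of nascent droplets, was at -0.12 and 0.19.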

How the results depend on the processing

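The log2 change of AGPAT9 lay between -1.21 and -1.16 in MIA PaCa-2 and between -1.78 and -1.68 in PSN-1 over 8 alternatives each. In limma it was called at -1.42 (adjusted p = 0.0496) only in the setting of genes averaging 1 FPKM or more in each line and short non-coding genes left out, which was added after the data were seen. The PSN-1 change of AGPAT1 ran from -0.03 to 0.07 and that of PLIN2 from -0.01 to 0.02. Every called line difference among the 10 genes was called again in each setting in which the gene was fitted. The count of the 10 genes with a 7-mer or 8-mer in the 3' UTR was 1 also over every coding transcript.

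Background counts past 2-fold moved with the filter and the pseudocount. In MIA PaCa-2, 93 lower genes became 178 with a pseudocount of 0.1, 174 with TPM scaling, 54 with a filter of 5 FPKM, 58 without short non-coding genes and 47 with the GC trend removed, and 151 higher genes became 249 with that pseudocount and 96 with the GC trend removed. In PSN-1, 95 lower genes became 173, 150 (TPM), 61 (5 FPKM) and 56 (GC trend), and 104 higher genes became 176, 178, 59 and 62. The GC step keeps only genes with a 3' UTR, and for the others the cause was not tested.

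Limma called 1 gene lower and 6 higher for the mimic. It called 0 lower with a pseudocount of 0.5, without the filter, without the trend and without the line as a block, and 6 lower in the added setting. It called 0 higher without the filter or without the block, and 2 higher without short non-coding genes. The labels carry no replicate numbers, so mimic and scramble libraries were paired by line alone, and without the line as a block the adjusted p of AGPAT9 was 1.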
